A study of Mus musculus with 10 samples.

Results

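The 5 Eln+/+ libraries of a 10-library series were described here as a reference for the transcriptome of normal embryonic aortic smooth muscle, and the 5 Eln-/- libraries were not used. Each library held bulk mRNA from aortic cells of mice collected at embryonic day 15.5, which carried wild-type Eln, the gene of elastin, and an Acta2-GFP reporter. The embryos came from crosses between Acta2-GFP mice heterozygous for Eln, which also gave the Eln-/- embryos of the series. Aortae were digested with collagenase, and cells that were green, lacked the endothelial surface protein CD31 and excluded the dead-cell dye DAPI were sorted into lysis buffer, without further treatment. Libraries were made with a low-input mRNA kit. The reporter is driven by the promoter of a smooth muscle actin gene, so the sort itself favoured cells with Acta2 promoter activity, and Acta2 is no independent check of identity. The number of embryos behind a library, whether the 5 replicates were separate embryos, and the stretch of aorta dissected are not given in the labels, so the spread over replicates may be partly technical. In sorted bulk samples, fewer cells of a type and less RNA per cell cannot be told apart.

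Smooth muscle cells build the wall of the aorta in concentric layers. In the adult they are mainly contractile and hold a dense network of smooth muscle actin, myosin, calponin and transgelin under the control of serum response factor and its partner myocardin. In the embryo the same cells divide, spread around the vessel and secrete the elastic fibres, collagens and proteoglycans that later bear the load of each heartbeat. Elastin is laid down on a scaffold of fibrillin microfibrils, guided by fibulins and cross-linked by lysyl oxidases.

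Depth ranged from 26951733 to 63866416 estimated counts per library, and counts are given as counts per 1000000 counts of a library (CPM). Replicate 1, the shallowest library, stood apart. Its values on the log2(CPM + 1) scale had a Pearson correlation of 0.702 to 0.800 with the other libraries, against 0.913 to 0.956 among replicates 2 to 5, as a description across genes, which are not independent. The shortest sixth of protein-coding genes, with exon lengths of 258 to 2280 bp, took 43.7% of the counts of replicate 1 and 19.1% to 27.3% of those of the others. The longest sixth took 1.98% in replicate 1 and 6.60% to 11.7% elsewhere. Ribosomal protein genes made up 10.5% of the counts of replicate 1 and 2.22% to 5.09% of the others, and 9623 genes reached 1 CPM in it against 12530 to 14953. Of protein-coding genes with a mean of at least 1 CPM, 62.0% had their lowest value in replicate 1 and 42.9% their highest in replicate 2, which is the background for the counts of such genes below. These shares were 73.0% and 40.0% at a mean of at least 10 CPM, and 58.2% and 21.3% at 100 CPM. The lowest value lay in replicate 1 for 19 of 23 elastic fibre genes, 6 of 11 fibrillar collagens and 7 of 17 basement membrane genes, and the part of gene length in those values was not tested. Values are given for all 5 libraries, and the range of replicates 2 to 5 is added where replicate 1 sets the extreme.

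**Figure D1:**
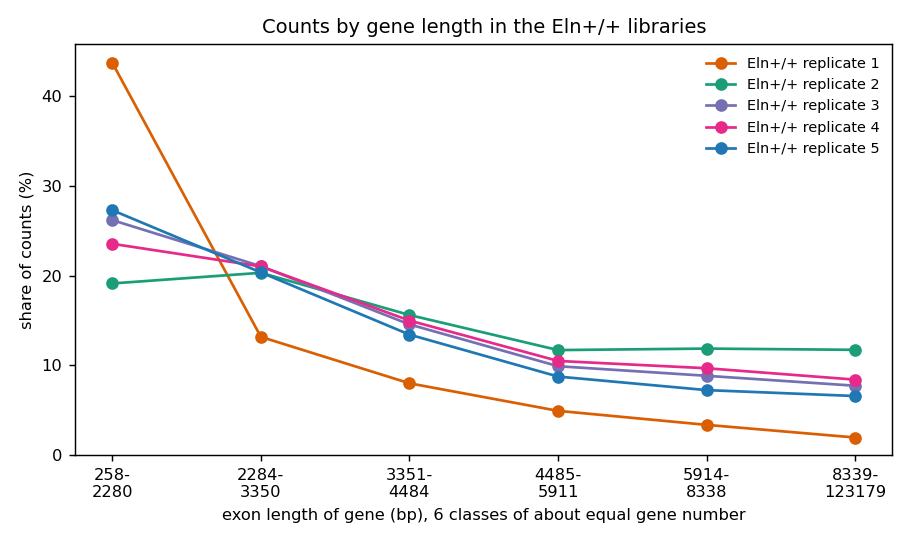
Share of counts (%) in 6 classes of protein-coding genes by exon length (bp), 1 line per Eln+/+ library. Replicate 1 lies above the others in the shortest class, at 43.7%, and below them in all 5 longer classes.

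The transcriptome was spread over many genes. Of the 28165 genes in the table, 7684 reached 1 CPM in all 5 libraries, 10608 did so in replicates 2 to 5, and 2971 had no count in any of the 5. No count in a library allows a level of up to 0.0470 to 0.111 CPM, the worth of 3 counts at these depths, for counting error only. The 129 genes with a mean of at least 1000 CPM held 28.3% of the counts on average, and the 1778 genes between 100 and 1000 CPM held 46.8%. The median gene of the table had a mean of 1.17 CPM and the median protein-coding gene 7.73 CPM. Of protein-coding genes, 73.0% had a mean of at least 1 CPM, 45.8% of at least 10 and 10.4% of at least 100, and these shares and the median are the background for the lists below. The 100 most abundant genes took 40.9% of the counts in replicate 1 and 21.4% to 27.1% in the others.

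The leading genes had varied roles. After CT010467.1, a ribosomal RNA gene model at 23003 ± 20296 CPM (SD, n = 5), the highest mean belonged to Serpinh1, which encodes HSP47, the chaperone of newly made collagen in the endoplasmic reticulum. Serpinh1 stood at 850, 8957, 12287, 12484 and 9603 CPM in replicates 1 to 5. It ranked 1 in replicates 2 and 3, 2 in replicate 4 and 3 in replicate 5, but 235 in replicate 1. Actb, the main cytoplasmic actin, stood at 2020, 7796, 6946, 7415 and 5224 CPM, and Ubb, a polyubiquitin gene, had a mean of 5886 ± 3233 CPM. Short transcripts of actin-binding proteins were also in the first ranks. Tmsb4x and Tmsb10, the thymosins that hold actin monomers, had means of 5850 ± 4795 and 3879 ± 2589 CPM and were highest in replicate 1, at 14276 and 8307 CPM. Profilin 1 (Pfn1) had a mean of 2602 ± 715 CPM. Among the other leaders were Eef1a1, the elongation factor that delivers tRNA to the ribosome, Tuba1a, an alpha-tubulin, Lgals1, a galactose-binding lectin, and Itm2a, a membrane protein of developing mesenchyme, with means of 5392, 5323, 5164 and 3920 CPM. Lars2, the gene of the mitochondrial leucyl-tRNA synthetase, ranged from 272 CPM in replicate 1 to 15145 in replicate 5. In replicates 2 to 5 it stood at 4578, 4296, 8520 and 15145 CPM. The ribosomal RNA model CT010467.1 had the same order there, at 7658, 6446, 15960 and 29626 CPM. In replicate 1, where Lars2 was lowest, CT010467.1 was highest, at 55323 CPM. The source of the reads counted for Lars2 was not tested.

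Several of the leading genes share their sequence with copies, and their counts are uncertain for that reason. Of the joint counts of mt-Co3, a mitochondrial gene of cytochrome oxidase, and its nuclear copy Gm28437, between 49.97% and 49.99% were assigned to the copy. The ferritin gene Ftl1 shared its counts in a similar way with Ftl1-ps1, which took 47.8% to 48.2% of the pair's counts. For Rps27 and Rps27rt the second took 99.3% to 99.6%.

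**Figure D2:**
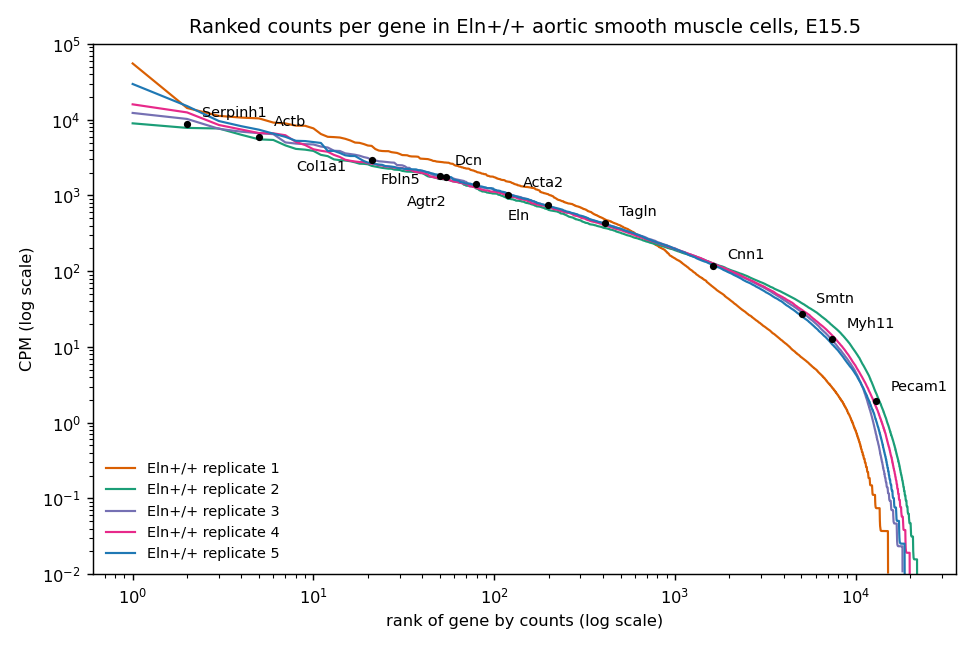
CPM of each gene (log scale) against its rank (log scale), 1 line per Eln+/+ library, with black points at the mean CPM of 13 named genes and the rank of that mean. Serpinh1 and Actb lie at the left end, Fbln5, Acta2 and Eln among the first 200 genes, and Smtn, Myh11 and Pecam1 far to the right. The line of replicate 1 falls below the others past about rank 1000.

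Early markers of the smooth muscle lineage were present in every library, whereas late markers stood lower. The contractile list had 33 genes, all with a mean of at least 1 CPM and 23 of them at or above 1 CPM in every library, with a median of 51.1 CPM. Acta2, smooth muscle alpha-actin, stood at 536, 1631, 542, 1188 and 1247 CPM, a mean of 1029 ± 478 (SD, n = 5), and ranked 120 of all genes. Tagln, or SM22-alpha, an actin-bundling protein and an early marker, stood at 361, 469, 148, 479 and 706 CPM and ranked 409. Its exons overlap those of Pcsk7, and the strand setting of the counting is unknown. Cnn1, calponin 1, which binds actin and slows myosin, stood at 9.87, 233, 77.9, 129 and 140 CPM and ranked 1621. Cnn1 was lowest in replicate 1 and Tagln in replicate 3. Without replicate 1 the ranks of Acta2, Tagln and Cnn1 were 102, 355 and 1398. In mm10, Acta2 spans chr19:34241090-34255590, Tagln chr9:45929619-45936058 and Cnn1 chr9:22099216-22109630.

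The markers of mature contractile muscle had lower ranks. Myh11, smooth muscle myosin heavy chain, stood at 3.45, 47.1, 10.4, 1.78 and 1.69 CPM and ranked 7427. Smtn, smoothelin, which appears late in contractile cells, had no count in replicate 1 and stood at 87.1, 5.03, 39.5 and 6.39 CPM in replicates 2 to 5. Replicate 2 had the highest value of both genes, as it had for 27 of the 33 contractile genes, against 42.9% of protein-coding genes. Myocd, the myocardin gene, stood at 1.60, 64.3, 0, 6.87 and 3.81 CPM, again highest in replicate 2, which also held the most cardiomyocyte transcripts (given below). Its DNA-binding partner Srf stayed between 0.0233 and 6.41 CPM in the 5 libraries. At these levels Myh11, Smtn and Myocd varied between libraries by more than their means, with coefficients of variation of 151%, 133% and 180%.

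Actins were compared with each other per length, as counts per kilobase of exon scaled to sum to 1000000 in each library (TPM). Actb made up 62.9% to 81.2% of the summed TPM of the 6 actin genes and stood above Acta2 in 5 of 5 libraries, by 3.09 to 10.5 times. Acta2 made up 20.8%, 16.3%, 7.74%, 14.0% and 18.3% of the family in replicates 1 to 5. Actg1, the other cytoplasmic actin, held 8.76% to 11.8%, and Acta2 was above it in 4 of 5 libraries. Actg2, the enteric smooth muscle actin, held 2.20% to 4.00% and was 3.52 to 5.51 times below Acta2, a narrow range over the libraries. Actc1, the cardiac actin, which embryonic smooth muscle can also express, ranged from 0.0699% in replicate 3 to 6.77% in replicate 2. Acta1, the skeletal actin, held at most 0.412%.

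Serum response factor acts through the CArG box, and the 4 actin genes with a promoter window all hold one there in exact or near-exact form. Windows from 250 bases before to 50 bases after the start were taken from RefSeq (GRCm38.p6), and capitals mark a CArG box on either strand. The Acta2 window, chr19:34255324-34255623 on the minus strand, holds 2 boxes that each differ from the strict pattern by 1 base, at 84 and 34 bases before the start, and is shown because this gene's promoter drives the reporter; which fragment the reporter carries is not in the labels. The Actg1 window, chr11:120348446-120348745 on the minus strand, and the window of Myl9, the regulatory myosin light chain of smooth muscle, chr2:156775214-156775513 on the plus strand, each hold 1 exact box and are shown for comparison with the near-exact boxes of Acta2. The windows of Acta1 and Actc1, not printed, also hold 1 exact box each.
Acta2: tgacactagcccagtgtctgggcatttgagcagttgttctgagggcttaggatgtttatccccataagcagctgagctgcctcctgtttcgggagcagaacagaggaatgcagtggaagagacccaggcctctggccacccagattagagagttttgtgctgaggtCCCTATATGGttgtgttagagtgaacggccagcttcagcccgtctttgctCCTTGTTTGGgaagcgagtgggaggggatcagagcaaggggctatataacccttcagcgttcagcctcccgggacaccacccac
Actg1: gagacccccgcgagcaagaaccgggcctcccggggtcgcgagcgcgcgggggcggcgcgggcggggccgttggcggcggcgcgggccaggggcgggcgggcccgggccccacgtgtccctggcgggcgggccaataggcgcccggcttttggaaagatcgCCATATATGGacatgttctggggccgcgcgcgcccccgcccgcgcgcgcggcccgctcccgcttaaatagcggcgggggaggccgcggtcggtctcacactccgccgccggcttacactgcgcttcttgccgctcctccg
Myl9: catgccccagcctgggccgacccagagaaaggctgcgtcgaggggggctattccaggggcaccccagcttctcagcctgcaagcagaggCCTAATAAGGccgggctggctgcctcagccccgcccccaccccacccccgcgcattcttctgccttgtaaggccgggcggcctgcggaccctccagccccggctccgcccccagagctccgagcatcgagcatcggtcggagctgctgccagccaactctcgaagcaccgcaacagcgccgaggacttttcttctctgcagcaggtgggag
An exact CArG box was found in 1.63% of all 32851 promoter windows and in 17.1% of the 35 windows of the contractile list, which belonged to 29 genes, 5 of them with a box. With 1 mismatch allowed the shares were 21.1% and 40.0%. A match is a description of the letters and not evidence of binding.

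The tropomyosins were led by non-muscle or widely expressed members, whereas the leader of the calponins and transgelins differed between libraries. Of the tropomyosins, which lie along actin filaments, Tpm4 held 60.1% to 66.5% of the family's TPM in replicates 2 to 5 and 32.1% in replicate 1, where Tpm3 was slightly above it with 35.1%. Tpm1 and Tpm2, the isoforms best known from muscle, held 9.56% to 15.7% and 9.37% to 17.1%. Of the calponins and transgelins, Cnn3, the acidic calponin of many cell types, stood at 62.5, 1017, 949, 896 and 701 CPM, and per length it was 3.93 to 11 times above Cnn1 in the 5 libraries. Tagln and Cnn3 exchanged places, with Cnn3 higher per length in 3 of 5 libraries. Tagln was above Tagln2, its widely expressed relative, in 5 of 5.

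The smooth muscle heavy chain was not the leading myosin heavy chain. Myh10, non-muscle myosin IIB, stood at 19.1, 179, 52.0, 41.0 and 25.7 CPM and made up 46.8% to 79.2% of the TPM of the 10 conventional heavy chains. It was above Myh11 per length in 5 of 5 libraries, by 2.76 to 16.7 times, and Myh11 held 3.87% to 18.5% of the family. Myh1, Myh2 and Myh8, heavy chains of skeletal fibres, had no count. Myh3, a skeletal muscle marker, held 10.2% of the family in replicate 4 and 1.07% in replicate 5. Myh6, a cardiomyocyte marker, held 25.0% in replicate 2 and 14.6% in replicate 4, above Myh11 in both. Light chains were higher per length, with 762 ± 175 TPM for Myl6 against 12.7 ± 15.4 for Myh10. Myl6, the essential light chain shared by smooth and non-muscle myosin, had a mean of 1512 ± 878 CPM with its highest value, 3018, in replicate 1. Myl9 stood at 96.8, 781, 316, 437 and 395 CPM. Myl12a, its non-muscle relative, was among the steadiest of all abundant genes, at 553, 634, 700, 682 and 567 CPM.

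Of 26 regulators of the contractile genes, 24 had a mean of at least 1 CPM and 2 of at least 100 CPM, and the median of 14.4 CPM was above the 7.73 CPM of all protein-coding genes. Fhl1, a LIM protein of muscle, led with 463 ± 283 CPM. Per length it was above Fhl2, the next by the mean, in 5 of 5 libraries, and Fhl2 was above Hey1 in 3 of 5. Hey1, a Notch target, stood at 19.8, 70.0, 23.0, 54.9 and 96.8 CPM. Klf4, which opposes the contractile genes, stood at 3.19, 32.9, 34.0, 13.8 and 6.91 CPM.

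**Figure D3:**
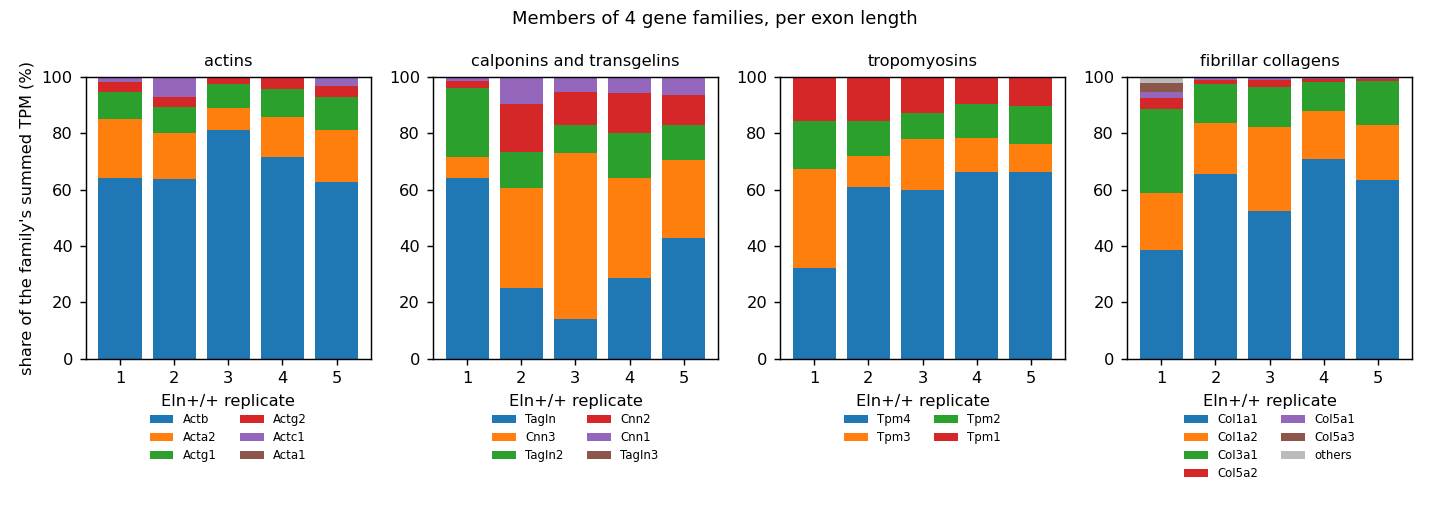
Share (%) of the summed level per length (TPM) held by each member of 4 gene families, as stacked bars for the 5 Eln+/+ replicates. Actb fills 62.9% to 81.2% of the actins, Tpm4 is the largest tropomyosin except in replicate 1, and Col1a1 is the largest fibrillar collagen in all 5.

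Elastic fibre genes were abundant. Of 23 members, 20 had a mean of at least 10 CPM and 12 of at least 100, against 45.8% and 10.4% of protein-coding genes, and the median was 116 CPM. Fbln5, fibulin 5, which links elastin to cells and microfibrils, stood at 171, 3436, 1085, 2315 and 1878 CPM and ranked 54 with a mean of 1777 ± 1236. Eln stood at 89.4, 1658, 200, 954 and 795 CPM and ranked 198 with a mean of 739 ± 634. Both genes were highest in replicate 2 and lowest in replicate 1. Replicate 3, at 200 CPM of Eln, also lay below the 795 to 1658 CPM of replicates 2, 4 and 5. Without replicate 1 the ranks of Fbln5 and Eln were 31 and 141. In mm10, Eln spans chr5:134702593-134747323, where its exons overlap those of Gm30003, and Fbln5 spans chr12:101746565-101819055. Per length, Fbln5 was above Eln in 5 of 5 libraries, by 2.24 to 6.35 times. The median log2 ratio of 1.47 became 0.59 when lengths were taken from the basic annotation, so the size of this ratio depends on the transcript models.

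Per length, the microfibril-associated glycoproteins led the list. Mfap2, or MAGP-1, which binds fibrillin, stood at 441, 1604, 1593, 1598 and 1003 CPM, and its level per length, 2013 ± 1086 TPM, was above that of Mfap4 in 5 of 5 libraries. Mfap4, which binds elastin and collagen, stood at 267, 2022, 1336, 1954 and 1277 CPM. Mfap5, or MAGP-2, was highest in replicate 1, at 1253 CPM, and stood at 407 to 1097 CPM in the others. The fibrillins, long glycoproteins that form the microfibril itself, were lower per length. Mfap2 was 63.7 to 237 times above Fbn1 per length, and Fbn1 was above Fbn2, the fetal fibrillin, in 5 of 5 libraries, by 1.18 to 4.68 times. Of the cross-linking enzymes, Lox stood at 17.4, 1247, 478, 835 and 408 CPM and Loxl1 at 16.2, 613, 83.5, 563 and 300 CPM. Which of them was higher per length differed between libraries, with Lox above Loxl1 in 3 of 5. In all, 19 of the 23 elastic fibre genes were lowest in replicate 1, against 62.0% of protein-coding genes, and 21 were highest in replicate 2, against 42.9%. Of protein-coding genes with a mean of at least 10 CPM, a level that 20 of the 23 reached, the shares were 73.0% and 40.0%.

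Collagen expression was dominated by type I. Col1a1 stood at 67.6, 6316, 1706, 5093 and 1290 CPM, a mean of 2894 ± 2670, and Col1a2 at 67.9, 3303, 1830, 2311 and 747 CPM. The 2 genes encode the chains of the type I trimer, in which alpha-1 outnumbers alpha-2. Per length, Col1a1 was above Col1a2 in 5 of 5 libraries, by 1.76 to 4.17 times with a median of 3.27, and the median log2 ratio of 1.71 became 0.64 with the lengths of the basic annotation. By CPM, Col1a1 was below Col1a2 in replicates 1 and 3, the libraries with the lowest ratios per length. A change of lengths shifts the ratio alike in every library, so the order in replicates 1 and 3 depends on the transcript models. Col3a1, the collagen of distensible tissue, held 10.3% to 15.4% of the TPM of fibrillar collagens in replicates 2 to 5 and 29.9% in replicate 1. Col5a2 and Col5a1, which regulate fibril diameter, held at most 3.83% and 2.19%. Among the 32 other collagens the median was 2.11 CPM, and the leader was Col6a1, of the beaded filaments, at 0.519, 368, 58.8, 214 and 54.1 CPM. Col14a1, a collagen that coats fibrils, kept a steady share of that family, 13.7% to 15.9% in the 5 libraries. Col4a3, Col10a1, Col17a1 and Col20a1 had no count.

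Genes of the machinery that folds and modifies collagen were abundant in replicates 2 to 5. They summed to 13826 to 17922 CPM there and to 1756 CPM in replicate 1, where 20 of 22 members were lowest. All 22 had a mean of at least 1 CPM, 13 of at least 100 and 12 at least 1 CPM in every library, and the median was 134 CPM. Serpinh1 was 7.30 times above the next gene per length by the ratio of the means and above it in 5 of 5 libraries. That gene, P4hb, a subunit of prolyl hydroxylase, stood at 79.6, 1652, 1574, 1974 and 1750 CPM. P4hb thus stayed between 1574 and 1974 CPM in replicates 2 to 5, while Col1a1 ranged from 1290 to 6316 CPM. Ppib, or cyclophilin B, was not low in replicate 1, with 713 CPM against 486 to 811.

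Basement membrane, proteoglycan and matricellular genes had a few abundant members. Sparc, a collagen-binding glycoprotein, stood at 167, 3876, 2824, 2961 and 1821 CPM and was 31.4 times above the next basement membrane gene, Nid1, per length by the ratio of the means. The laminin chains were lower, with Lamb2 at 28.5 ± 28.3 CPM and Lamb1 at 41.5 ± 56.6, and Lama1, Lamb3 and Lamc3 without a count. Of the small leucine-rich proteoglycans, which space collagen fibrils, Dcn stood at 279, 2056, 3211, 2300 and 1274 CPM and Lum at 28.8, 1487, 890, 1302 and 753 CPM. Ogn and Aspn had means of 467 ± 314 and 325 ± 278 CPM. Bgn, biglycan, was 2.00 CPM in replicate 1 and 199 to 711 CPM in the others. Mgp, matrix Gla protein, which keeps arteries from calcifying, was steady by comparison at 334, 331, 209, 353 and 363 CPM. Thbs2 and Postn, matricellular proteins of growing connective tissue, ranged from 201 to 1144 and from 92.2 to 880 CPM in replicates 2 to 5.

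The 24 integrins had a median of 3.00 CPM and the 26 matrix proteases and inhibitors one of 29.4 CPM. Itgb1, the shared beta subunit of most matrix integrins, had a mean of 265 ± 187 CPM and was 4.88 to 47.4 times above Itgb5 per length. Itga8, an alpha subunit of smooth muscle, ranged from 0.349 CPM in replicate 3 to 122 in replicate 2. The leukocyte integrins Itgam and Itgb7 and the epithelial Itgb6 had no count, though other leukocyte and epithelial members of the list had counts in some libraries. Among proteases and inhibitors, the membrane protease Mmp23 led per length at 198, 178, 180, 309 and 323 CPM, and the inhibitor Timp1 stood at 25.9 to 51.8 CPM. Mmp2, gelatinase A, had no count in replicate 1 and stood at 45.2 to 352 CPM in the others, and Mmp9 had none in all 5.

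Of the 15 connexins, which form gap junctions, 6 had no count in all 5 libraries and only Gja1, connexin 43, exceeded a mean of 100 CPM, at 10.5, 225, 469, 314 and 119 CPM. Per length it was above Gja4, connexin 37, in 3 of 5 libraries. Gja5, connexin 40, ranged from no count in replicate 1 to 71.7 CPM in replicate 4. Among the cadherins, the mesenchymal Cdh11 led at 13.5, 334, 223, 213 and 95.3 CPM and was 1.96 to 18.0 times above the N-cadherin gene Cdh2 per length.

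**Figure D4:**
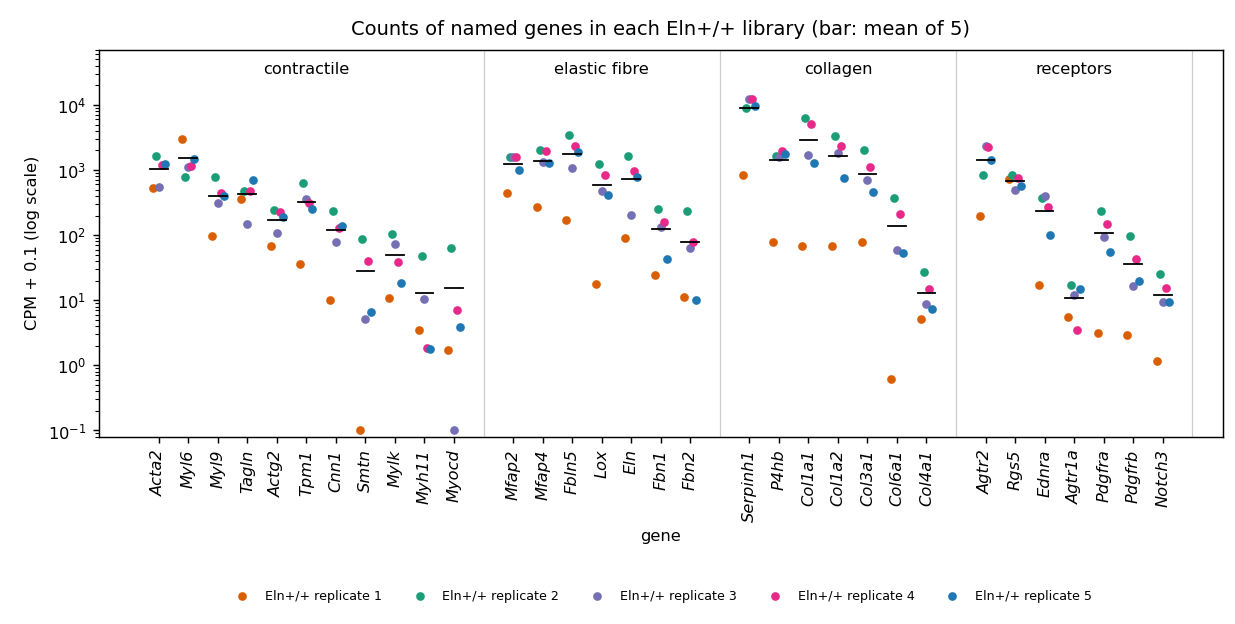
CPM + 0.1 (log scale) of 32 genes in each Eln+/+ library, coloured by replicate, with a black bar at the mean of 5. Most of the matrix genes plotted are lowest in replicate 1, whereas Myl6 and Rgs5 are not, and Smtn, Myh11 and Myocd spread over more than a factor of 10.

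Genes of growth factor signalling differed widely by member. The TGF-beta and BMP list of 40 was led by the Id genes, which carried most of its sum of 2782 ± 254 CPM, and 22 of the 40 were lowest in replicate 1. Id3, an inhibitor of helix-loop-helix factors and a BMP target, stood at 1777, 1127, 1032, 1211 and 1579 CPM, and the per-length ranges of Id3 and Id1 did not overlap. Of the 3 TGF-beta ligands, Tgfb3 and Tgfb2 had means of 104 ± 68.2 and 88.0 ± 77.5 CPM, and Tgfb3 was above Tgfb2 per length in 5 of 5 libraries by 1.31 to 5.31 times. Tgfb1 had a mean of 0.530 CPM. Of the receptors, Tgfbr1 was 0.0742 CPM in replicate 1 and 130 to 202 CPM in the others, and per length it was 2.14 to 8.66 times above Tgfbr2 in replicates 2 to 5.

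In the Notch list, which governs the smooth muscle fate around arteries, no gene reached a mean of 100 CPM. Jag1, the ligand made by both endothelium and smooth muscle, stood at 31.3, 134, 67.4, 55.2 and 15 CPM. Notch3, the receptor typical of arterial smooth muscle, stood at 1.08, 24.9, 9.36, 15.2 and 9.41 CPM, and Notch2 was above it per length in 3 of 5 libraries. Hes1 and Heyl, target genes of the pathway, stood at 54.2, 113, 73.5, 61.5 and 65.9 CPM and at 5.23, 159, 47.8, 169 and 64.7 CPM. Per length their means were 68.7 ± 36.9 and 36.0 ± 31.8 TPM, against 3.06 ± 2.63 for Notch3.

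Among PDGF, FGF and VEGF genes, Pdgfra, a receptor of mesenchyme and fibroblasts, stood at 3.04, 239, 93.1, 147 and 55.0 CPM, and Pdgfrb, the receptor of mural cells, at 2.78, 98.0, 16.6, 43.3 and 19.8 CPM. Per length Pdgfra was higher in 4 of 5 libraries, the exception being replicate 1. The ligand Vegfd led the list per length at 55.5 to 127 CPM, and Nrp1, a co-receptor, had a mean of 175 ± 152 CPM. Vegfa, the main endothelial growth factor, had a mean of 2.58 CPM.

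Imprinted growth genes were prominent. All 20 members had a mean of at least 1 CPM, 13 of at least 100, and their median was 253 CPM. Cdkn1c, a cell cycle inhibitor expressed from the maternal allele, stood at 101, 2355, 5015, 1011 and 1232 CPM. Mest, expressed from the paternal allele, stood at 159, 2831, 4422, 4072 and 2697 CPM, though its exons overlap those of Copg2. Igf2, the fetal growth factor, stood at 1111, 2581, 1664, 2071 and 2020 CPM, and H19, the noncoding RNA beside it, at 92.9, 715, 395, 549 and 549 CPM. Their ratio per length was 1.55 to 1.81 in replicates 2 to 5 and 5.14 in replicate 1. Grb10, a growth inhibitor, ranged from 716 to 2994 CPM in replicates 2 to 5. Igf1 was below Igf2 per length in 5 of 5 libraries, at 0.0562 to 0.697 of its level.

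The angiotensin receptors stood far apart. Agtr2, the type 2 receptor that is abundant in fetal mesenchyme, stood at 194, 850, 2316, 2232 and 1428 CPM and ranked 79 by counts, with 815 ± 537 TPM per length against 909 ± 576 for Acta2. Agtr1a, the type 1 receptor that raises blood pressure in the adult, had a mean of 10.6 CPM, and Agtr2 was 29.6 to 543 times above it per length in the 5 libraries. Ednra, the endothelin receptor of smooth muscle, stood at 16.8, 371, 399, 271 and 99.2 CPM and was 4.12 to 117 times above Ednrb per length. Rgs5, a regulator of G-protein signalling and a mural cell gene, was even by CPM over the libraries, at 731, 830, 485, 751 and 574 CPM. Kcnj8, which forms the vascular ATP-sensitive potassium channel with Abcc9, stood at 36.5, 127, 285, 225 and 190 CPM. The median of the 39 vasoactive receptors and channels was 4.91 CPM, below that of all protein-coding genes, and Adra2a had no count.

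Of 104 developmental transcription factors, 86 had a mean of at least 1 CPM and 10 of at least 100, the latter a share near the 10.4% of all protein-coding genes. After the Id genes, the leaders per length were Klf6, Osr1, Snai2 and Meox1. Osr1, a factor of lateral and intermediate mesoderm, stood at 0.0371, 325, 168, 180 and 134 CPM. Snai2, a factor of mesenchymal transition, stood at 9.46, 109, 124, 115 and 46.9 CPM, and Meox1, a factor of the somites, at 0, 76.5, 120, 41.3 and 47.6 CPM. Prrx1 and Twist2, factors of loose mesenchyme, had means of 109 ± 61.6 and 48.2 ± 15.9 CPM. Pax3, Six2 and Lhx6 had no count.

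The 30 Hox genes, which record position along the body, were led per length by members of paralogue groups 2 to 7. Hoxb2 was even over the libraries at 40.3, 50.7, 35.4, 33.6 and 36.8 CPM, and Hoxb5 stood at 18.2 to 24.0 CPM. Hoxa5 stood at 0.0371 CPM in replicate 1 and 27.1 to 43.4 in the others. Hoxc4 and Hoxa7 were highest in replicate 3, at 107 and 61.9 CPM, against 5.75 to 27 and 1.33 to 29.7 elsewhere. Hoxa11, Hoxc10, Hoxd1 and Hoxd9 had no count.

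Most cell cycle genes were detected in every library. All 22 S phase and 25 G2/M phase genes had means of at least 1 CPM, with medians of 82.1 and 52.1 CPM, and 16 and 17 of them reached 1 CPM in every library. Pcna, the DNA polymerase clamp, stood at 131, 153, 162, 199 and 167 CPM, Rrm2, a subunit of ribonucleotide reductase, at 49.1, 294, 293, 250 and 178 CPM, and Birc5, survivin of the mitotic spindle, at 206, 135, 134, 171 and 159 CPM. Glycolytic genes summed to 640 CPM in replicate 1 and to 3006 to 4522 CPM in the others, led per length by Ldha, lactate dehydrogenase A, at 645 ± 230 CPM.

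Immediate early genes, which respond to stimuli within minutes, set replicate 2 apart. Their 27 members summed to 861, 15072, 2198, 2507 and 2372 CPM in replicates 1 to 5, and 24 were highest in replicate 2, against 42.9% of protein-coding genes. Fos stood at 66.5, 4119, 391, 451 and 447 CPM, Egr1 at 42.6, 1743, 145, 263 and 172 CPM, and Junb at 33.3, 1094, 14.4, 74.2 and 94.4 CPM. For each of the 3, replicate 2 lay far above the other 4 libraries. Fosl1 had no count.

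Markers of endothelial cells and leukocytes were low, with medians of 1.90 and 0.759 CPM, while globins are given below. The 15 endothelial markers summed to 8.79, 100, 80.4, 132 and 47.8 CPM, and Pecam1, the gene of CD31, stood at 0.0371, 0, 0.163, 9.30 and 0.0252 CPM. Tek and Egfl7, the latter also made outside endothelium, were the highest after Cldn5 per length. The 12 macrophage and leukocyte markers summed to 2.75 to 35.0 CPM, with Ptprc, the gene of CD45, at 0.0504 CPM in replicate 5 and without a count in the other 4. Neuronal and epithelial markers summed to at most 65.6 and 43.4 CPM. The 9 glial and neural crest markers summed to 91.8 to 220 CPM, carried by Gap43, S100b and Ngfr, while Sox10, the defining factor, reached 0.266 CPM in replicate 2 and had no count elsewhere.

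Genes used as fibroblast markers were abundant. As a share of reads, the 12 members summed to 1966, 4920, 5801, 5420 and 2938 CPM, against 5887, 9105, 5205, 7222 and 6837 CPM for the 33 contractile genes, and replicate 3 was the library in which the fibroblast sum was the higher. The contractile list also holds genes of many cell types, among them Myl6, Cnn3 and Tagln2, so its sum is not a measure of smooth muscle alone. Dcn, Lum, Mfap5 and Dpt made up most of the fibroblast sum. Dcn was above Acta2 per length in 1 of 5 libraries, replicate 3, and the median log2 ratio changed sign with the lengths of the basic annotation. All 12 had a mean of at least 1 CPM and 11 of at least 10. Of the genes used for adventitial fibroblasts, Pi16 stood at 3.27 to 52.7 CPM and Ly6a at 4.40 to 19.7 CPM. The shares of fibroblasts, and of smooth muscle cells that express these genes, cannot be told apart in bulk RNA. The 10 pericyte and mural markers summed to 836 to 1369 CPM, of which Rgs5 made up the largest part.

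Cardiac and skeletal muscle genes varied widely between libraries. The 12 cardiomyocyte markers summed to 326, 939, 5.75, 72.9 and 93.2 CPM, and all 12 were highest in replicate 2. Myl7, the atrial light chain, stood at 267, 405, 1.28, 41.8 and 22.8 CPM, and Tnnt2, cardiac troponin T, had no count in replicates 1 and 3 and 135 CPM in replicate 2. Nppa and Actn2, of atrial hormone and sarcomere, were at 16.1 and 20.6 CPM in replicate 2 and without a count in the other 4. Actc1 was likewise highest in replicate 2, at 500 CPM, and lowest in replicate 3, at 3.61 CPM. The 11 skeletal muscle markers summed to 14.2, 74.5, 5.85, 45.5 and 179 CPM, and their regulators were highest in replicate 5, where Myog stood at 120 CPM and Myod1 at 19.1 CPM, against at most 23.1 and 2.66 CPM elsewhere. The part of other muscle cells in the values of Actc1, Myl7, Myocd and Myh11 in replicate 2 was not tested. Mesothelial and chondrocyte lists were also highest in replicate 2, at 353 and 285 CPM, and were led by Upk3b and Sox9.

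Globin transcripts were highest in replicate 1. The 9 globin genes summed to 10609, 450, 1557, 933 and 1187 CPM, whereas the 8 other erythroid markers summed to 3.15 to 12.8 CPM, with the lowest sum in replicate 1. Hbb-bs, adult beta-globin, was 18.4 to 2219 times above the embryonic Hbb-y per length. Hba-a1 and Hba-a2 are near-identical, and the split of counts between them is uncertain.

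**Figure D5:**
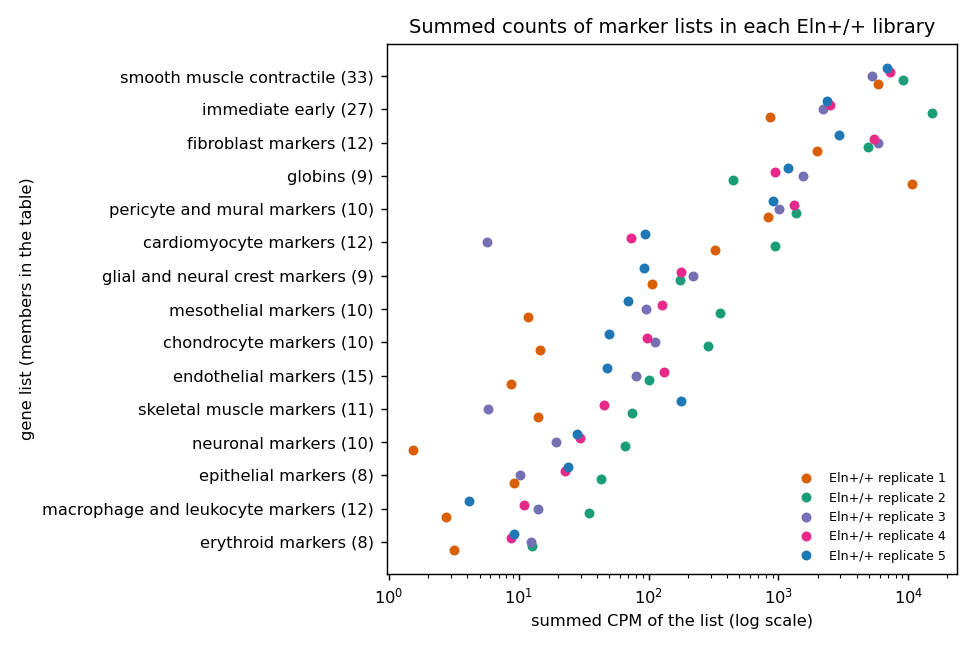
Summed CPM (log scale) of 12 marker lists of other cell types and of the contractile, immediate early and globin lists, 1 point per Eln+/+ library, with the number of genes in brackets. Fibroblast markers lie near the contractile list, which also holds widely expressed genes. Endothelial markers lie at 8.79 to 132 CPM, the cardiomyocyte list spreads from 5.75 to 939 CPM, and the globin point of replicate 1 lies far to the right of the others.

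Spread between libraries was wide for most abundant genes. Among 1678 named protein-coding genes with a mean of at least 100 CPM, the median coefficient of variation was 50.8%, and it was 24.7% without replicate 1. The value in replicate 1 was the lowest of the 5 for 993 of these genes and the highest for 510. The 10 steadiest genes, with coefficients of 5.22% to 10.5%, included Vdac2, a mitochondrial channel, at 227, 228, 222, 239 and 252 CPM and H3f3b, a histone H3.3 gene, at 2299, 2063, 2315, 1893 and 2283 CPM. The 10 most variable genes were of 4 kinds: the globins Hbb-bs and Hbb-bt and the short ATP synthase genes Atp5e and Atp5l, all highest in replicate 1, and the immediate early genes Fos, Egr1, Zfp36, Junb and Socs3 and the cardiac actin Actc1, all highest in replicate 2. Which genes stood at the ends of this order depended on the scaling and the libraries: with edgeR TMM factors 0 of the 10 steadiest and 4 of the 10 most variable remained, and without replicate 1 the numbers were 2 and 6. None of the 5 markers Acta2, Tagln, Cnn1, Eln and Fbln5 was among either group, with coefficients of 46.5%, 46.9%, 69.9%, 85.7% and 69.6%.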

How the data were processed

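The authors deposited estimated counts of 28165 genes in 1 table, without scaling for depth. Of the values of a library, 23.6% to 47.9% lay further than 1e-06 from a whole number. STAR and DESeq2 were used with mm10, per the submitters' processing notes. Which program counted the reads, with which annotation and strand, is not given in the sources used here, so genes whose exons overlap another gene are uncertain, among them Cnn3, Tagln, Smtn, Tpm4, Eln, Lox, Mfap4, Col3a1, Igf2, H19, Cdkn1c, Mest, Ednra, Pdgfra, Junb, Zfp36 and Notch3. Each column was tied to its library through the sample name in the labels, and 0 columns were left without a sample.

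CPM was the estimated count over the library's total (26951733 to 63866416), times 1000000, with no rounding and no filter. The table holds no exon lengths, so the union of exons in GENCODE mouse release M21 (GRCm38) was used, with 27876 genes matched by position, 238 by symbol and 51 left without a length. Values are mean ± SD over 5 libraries. Nothing was tested: there was 1 group, and a two-sided exact sign-flip test between genes over 5 libraries cannot give a p below 0.0625. Orders are given as the number of libraries that show them. Coordinates are 1-based.

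The 43 lists hold 791 genes, of which 763 were in the table. The genes, lists and rules were chosen with earlier results of these data known. Named are the 5 markers, the 30 genes of highest mean CPM, the 20 nuclear protein-coding genes of highest level per length other than ribosomal protein genes and unnamed models, up to 6 members of each program or family list and 3 of each list of other cell types by level per length, 15 transcription factors, members without a count, the 10 genes of lowest and of highest coefficient of variation at a mean of at least 100 CPM, and 7 further marker genes. Named after their values were seen were Agtr1a, Ednrb, Abcc9, Tgfb1, Tgfbr2, Notch2, Vegfa, Fbn1, Fbn2, Mylk, Col4a1, Dpt, Pi16, Ly6a, Ptprc, Tnnt2, Nppa, Actn2, Sox10, Myod1, Rps27, Ddx3y, Eif2s3y, Uty, Kdm5d and Xist.

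Alternatives were edgeR TMM factors, DESeq2 size factors, a total without mitochondrial, ribosomal RNA and haemoglobin genes, edgeR's filterByExpr, the median, rounding, another exon length, stricter detection and leaving out each replicate. The calculation was tested on simulated data. Promoter windows came from RefSeq (GRCm38.p6) and were searched on both strands. Versions were Python 3.11.15, numpy 2.4.6, pandas 2.3.3, matplotlib 3.10.9, R 4.3.3, edgeR 4.0.16 and DESeq2 1.42.0.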

Additional observations from a re-analysis of the deposited data

Results flagged for a closer look

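In each of the values below, 1 library lay far from the other 4 by Dixon's ratio, with a critical value of 0.71 for 5 samples. Of the 242 values examined, 42 were of this kind (17.4%). Chance alone gives about 1 in 20, but the values include genes chosen for their spread or named after their values were seen, so the share cannot be read against it. No explanation was tested.

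Replicate 1 was the highest library for 12 values. They were the globins Hbb-bs at 5598 CPM (161 to 517 in the others), Hba-a2 at 2399 CPM, Hba-a1 at 1543 CPM and Hbb-bt at 1044 CPM, the summed globins at 10609 CPM and their share of counts at 1.06%. The same held for the thymosin gene Tmsb4x at 14276 CPM (2407 to 4932), the ATP synthase genes Atp5e at 4948 CPM and Atp5l at 2618 CPM, the ribosomal genes Rps27rt at 10663 CPM and Rps27 at 44.8 CPM, and Vegfa at 6.08 CPM (0.782 to 2.10). It was the lowest library for P4hb at 79.6 CPM (1574 to 1974), for the collagen processing list at 1756 CPM (13826 to 17922), and for the length classes of 2284 to 3350 bp and 3351 to 4484 bp, at 13.2% and 8.02% of counts.

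Replicate 2 was the highest library for 18 values. Of immediate early genes these were Fos at 4119 CPM, Egr1 at 1743 CPM, Zfp36 at 1117 CPM, Junb at 1094 CPM and Socs3 at 364 CPM, and the list's sum of 15072 CPM (861 to 2507). Of muscle genes they were Tnnt2 at 135 CPM, Myocd at 64.3 CPM, Myh11 at 47.1 CPM, Acta1 at 28.8 CPM, Actn2 at 20.6 CPM and Nppa at 16.1 CPM. The non-muscle myosin gene Myh10 stood at 179 CPM and the summed heavy chains, which include Myh10, at 326 CPM. The mesothelial gene Upk3b stood at 158 CPM (1.52 to 46.8), Cdh2 at 79.3 CPM, Ednrb, an endothelin receptor, at 70.1 CPM and Sox10 at 0.266 CPM.

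Replicate 3 was the highest library for Itm2a at 7589 CPM (2181 to 3636) and Hoxc4 at 107 CPM, and the lowest for Mgp at 209 CPM (331 to 363). Replicate 4 was highest for the endothelial genes Cldn5 at 38.2 CPM and Pecam1 at 9.30 CPM. Replicate 5 was highest for the skeletal muscle regulators Myog at 120 CPM and Myod1 at 19.1 CPM, and for Ptprc at 0.0504 CPM, which is 2 counts.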

How the results depend on the processing

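No paired analysis was possible because only 1 group was described and no test was run. Across 256 results and 3012 recomputed values, 2991 moved by less than 1 SD over the libraries (counts of genes by less than 1.5 times), 18 moved by more and 3 changed sign. For mean levels and summed CPM, leaving out 1 of 5 libraries or taking the median cannot exceed that margin. Such values could only come out unmoved, so the total is no measure of their stability. Scaling by edgeR TMM factors moved no level past that margin, and DESeq2 factors moved those of H3f3b, to a mean of 2389 CPM, and Vdac2, to 252 CPM, whose SDs were small. For genes that varied widely over the libraries the margin is wide. A large shift of their levels under other scaling therefore also counts as unmoved. With TMM 0 of the 10 steadiest and 4 of the 10 most variable genes remained. With only the genes that pass filterByExpr, the endothelial sum was 19.5 CPM, Vdac2 stood at 247 CPM, and the macrophage and erythroid sums were 0 because no member was kept. With exon lengths of the basic annotation the median log2 ratios were 0.59 for Fbln5 over Eln, 0.64 for Col1a1 over Col1a2 and 0.40 for Dcn over Acta2, the last with its sign changed. The Lox over Loxl1 ratio (log2) became -0.030 without replicate 2 or 3. At 5 CPM in every library 4996 genes were detected. Leave-one-out ranges were -0.030 to 0.26 for that ratio, 24.7% to 58.9% for the median coefficient of variation, and 2 to 8 genes kept of the 10 steadiest and 4 to 8 of the 10 most variable. In replicate 1, the shallowest library, 2924 genes that reached 1 CPM in replicates 2 to 5 were under 1 CPM. Its 3 counts are worth 0.111 CPM, and why these genes were low in it was not tested.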

Other observations

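Transcripts of the sex chromosomes divided the libraries. Xist, the noncoding RNA of the inactive X chromosome, stood at 28.7 CPM in replicate 3 and 61.2 CPM in replicate 5 and had no count in replicates 1, 2 and 4. The Y-linked gene Ddx3y stood at 125 CPM in replicate 2, 96.6 in replicate 4, 5.86 in replicate 1, 5.25 in replicate 5 and 0.0233 in replicate 3. Eif2s3y, also Y-linked, stood at 34.3 and 62.4 CPM in replicates 2 and 4 and at or below 0.0742 CPM in the other 3 libraries, and Uty followed the same order, at 40.6 and 36.1 CPM. Kdm5d stood at 18.0 and 15.8 CPM in replicates 2 and 4 and at or below 0.0233 CPM elsewhere. Replicates 2 and 4 thus held Y-linked transcripts without Xist, replicate 3 held Xist without more than traces of the Y-linked genes, replicate 5 held Xist with Ddx3y at a low level, and replicate 1 held Ddx3y at a like level without Xist. The sex and number of embryos behind each library are not given in the labels.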
